A study of Xenopus laevis with 9 samples.

Results

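Cornea to lens transdifferentiation (CLT) is the replacement of a lost lens by cells of the cornea, which Xenopus tadpoles carry out after the lens has been taken from the eye. Whole lenses of *Xenopus laevis* tadpoles (L1, L2 and L3) were compared here with corneas undergoing CLT (R1, R2 and R3), which were collected 3 days after lens removal, to measure how far the lens-forming cornea still lay from lens and which lens genes it lacked. These were 6 of the 9 arrays in the series, and all 15476 non-control probesets of the 15611 on the array were used. The other 3 arrays held sham operated corneas (S1, S3 and S4), in which the cornea flap had been raised and replaced 3 days earlier with the lens left in. All tadpoles were wild type and at stage 50, and the labels give 5 lenses for each L pool and 7 to 8 corneas for each R or S pool, although the methods of the study give a larger pool. R was therefore whole cornea, with some epidermis by the methods, and not isolated lens-forming cells. By the methods the L and R pools came from the same operated tadpoles. R had 3 days of healing after surgery and L had none, so the effect of tissue and that of surgery cannot be told apart.

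The lens is a body of elongated fibre cells under a simple epithelium, without blood vessels or nerves. Fibre cells fill with crystallins, the soluble proteins that give the lens its refractive power, seal their membranes to each other and break down their organelles, while an epithelial layer supplies new fibres throughout life. During CLT the inner layer of the outer cornea, once exposed to signals from the retina, thickens, gathers into a cell mass that enters the vitreous, and forms fibre cells last. The cornea itself is a stratified epithelium over a collagen stroma, with nerves and patrolling immune cells.

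Values are RMA intensities on a linear scale, and differences between groups are log2, L minus R, so that a positive value means higher in L. Array medians ran from 2.99 to 3.29, and where all 3 arrays of a group lay below their own median, the fold change is given as a bound ("at least"), computed with the array median in place of the values below it. For scale, 231 of 243 values of the Bacillus control probesets lay below the median of their array. The upper quartile of an array lay between 8.99 and 9.86 for L and between 17.8 and 20.1 for R. Fewer probesets reached an intensity of 32 in lens, 1386 to 1532 per array in L and 2392 to 2545 in R. The number of arrays limits the precision, p-values measure the spread between pools, and in bulk tissue fewer cells of a type cannot be told apart from less RNA per cell.

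Markers of neighbouring tissue differed between arrays of the same group. The summed intensity of 24 photoreceptor and retina genes was 312, 423 and 188 in L, 238, 776 and 150 in R, and 122 to 160 in S. Most of each S sum came from gnb1.S, at 83.5, 122.6 and 88.1, and 22 of the 24 genes lay below the median in each S array. In L, gnb1.S stood at 77.1, 82.5 and 50.0 and nrl.S at 73.0, 68.8 and 67.0, so the sums do not measure retina alone. R2 was the highest R array for 21 of these 24 genes and L2 the highest L array for 16 of them, so that R2 and L2 stood apart. L2 also stood apart for red blood cell genes, whose 19 members summed to 194, 929 and 216 in L, against 2062, 1491 and 1103 in R. Without R2, 2615 probesets were higher and 4378 lower in L than in R, and without L2 the counts were 2709 and 4324. The part of these markers in the other results was not tested.

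The lens differed from the corneas undergoing CLT in a large share of the transcripts measured, and more of them were lower than higher in lens. With limma and an adjusted p under 0.05, 2881 of 15476 probesets (18.6%) were higher and 4674 (30.2%) lower in L than in R, 48.8% in both directions together. Of those higher, 594 differed by more than 4-fold and 25 by more than 64-fold, and of those lower, 1768 and 66 did. Over the 6482 genes with a symbol, each taken by its brightest probeset, 18.8% were higher and 35.6% lower, and the median difference was -0.21. The counts of the function lists below are to be read against these shares. The balance of directions depended on scaling, since higher calls made up 53.5% of all calls after quantile normalisation (3856 higher, 3354 lower) and 48.3% after cyclic loess (3245 higher, 3480 lower). Quantile normalisation moved the median difference of all probesets to 0.11, against -0.07 as deposited. L and R values had a median correlation of 0.709 across probesets (0.677 to 0.739), against 0.687 between L and S (0.676 to 0.714). These ranges overlapped, and the median of L against R3 was 0.679, below that of L against S. Between R and S the median was 0.953, and these comparisons share arrays. R differed from S in 75 probesets higher (0.485%) and 99 lower (0.64%).

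**Figure D1:**
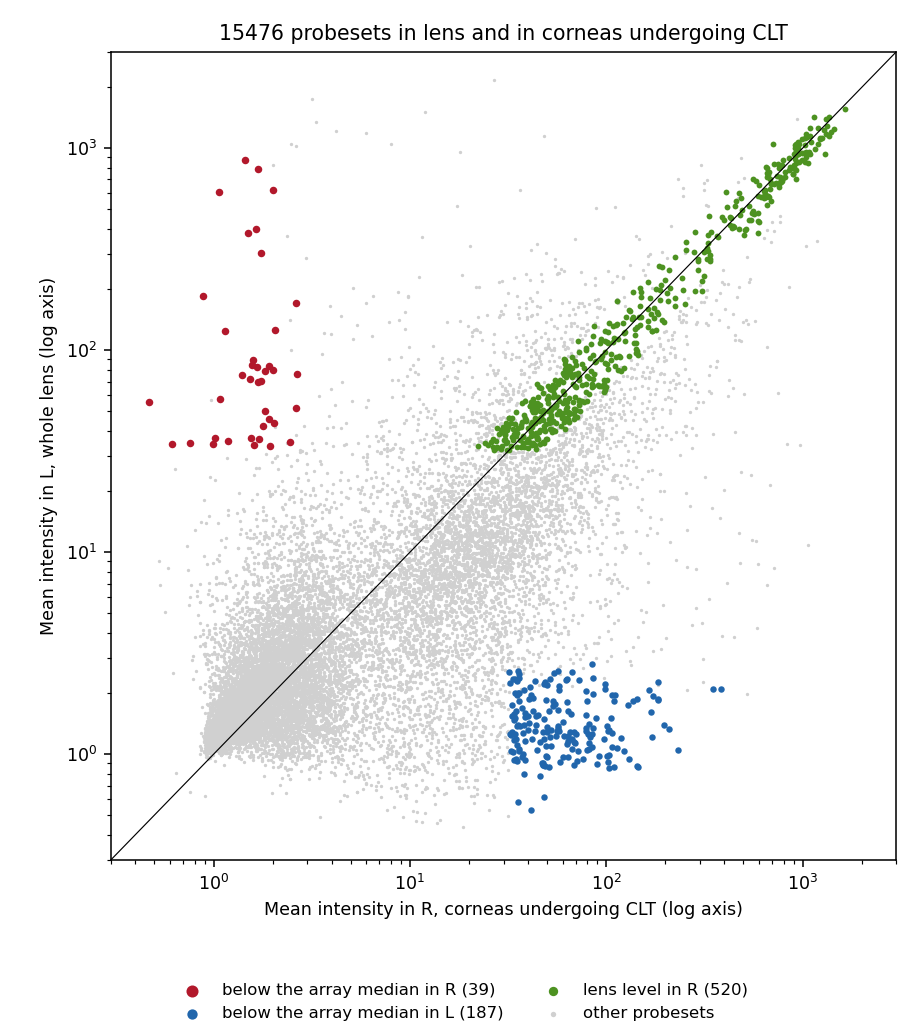
Mean intensity of 15476 probesets in corneas undergoing CLT (horizontal, log axis) and in whole lens (vertical, log axis), with the line of equal means. The 39 red points at the upper left are lens probesets below the median in all 3 R arrays, the 187 blue points at the lower right are the mirror set, and the 520 green points on the line are probesets at lens level in R.

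Among the function lists, the largest median difference was that of the crystallins. All 13 probesets of the 9 crystallin genes measured were higher in L, with a median difference of 8.53 over the genes. With only the brightest probeset of each gene, the 9 genes summed to 10361, 10031 and 10585 in L, against 83.5, 24.1 and 59.4 in R. cryaa.S, the alpha crystallin that acts as a chaperone, stood at 914, 838 and 878 in L, against 1.51, 1.11 and 1.69 in R, which was at least 278-fold higher (difference 9.27, SE 0.19, adjusted p = 1.51e-08). All 3 R arrays were below the array median for it, and so were the R arrays for crybb2.L at 358, 351 and 434 in L, against 1.26, 1.18 and 2.06 in R (at least 121-fold) and for crybb3.S at 578, 630.2 and 653 in L, against 2.38, 1.40 and 2.23 in R (at least 197-fold), both of them beta crystallins. cryba2.S, a further beta crystallin, stood at 1742, 1738 and 1790.1 in L, against 4.58, 1.34 and 3.63 in R (difference 9.29). In no R array did a crystallin probeset exceed 6.93% of its mean in L. A value below the array median does not show that a transcript was absent. For Cryaa, quantitative PCR in the paper found a rise in CLT over sham operated corneas that its array did not show.

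Gamma crystallins stood on both sides of the crystallin median of 8.53. crygdl.30.L had a difference of 9.08. The first of the crygbl.4.S probesets stood at 2230.2, 2090.3 and 2192 in L, against 34.3, 13.7 and 32.5 in R, and the other at 503, 508 and 539 in L, against 22.4, 12.9 and 16.6 in R, a 30.6-fold difference. These were the only crystallin probesets that passed the test between R and S, by 3.03 (adjusted p = 0.0119) and 4.20 (adjusted p = 5.71e-05), with S at 5.11, 1.78 and 3.06 and 1.14, 0.834 and 0.817. Of the other crystallin probesets, cryga.4.L alone had a negative difference between R and S (-0.15). Among the largest that did not pass the limma test were crybb1.S (2.56, adjusted p = 0.156), crybb3.L (1.88, adjusted p = 0.256) and cryba1.L (1.82, adjusted p = 0.176). Quantitative PCR in the paper found Cryba1, Crybb1, Crybb3 and a Crygb-like gene higher in CLT than in sham operated corneas. cryga.4.L was dim in lens as well, at 11.4, 11.6 and 15.5 in L, against 0.774, 0.890 and 0.749 in R, at least 4.04-fold.

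The R arrays differed in their crystallin values. Over the 13 probesets, the median percent of lens level was 0.477 in R1, 0.133 in R2 and 0.416 in R3, and R2 gave the smallest R value for 12 of them. crybb3.L, for example, stood at 1445, 1556 and 1524 in L, against 28.1, 2.66 and 4.92 in R, and crybb1.S at 996, 1062 and 1102 in L, against 18.2, 1.41 and 4.38 in R, with R1 the highest for both. Leaving out 1 R array moved the difference by more than 1.5-fold for crygdl.30.L (9.08 with all arrays and 9.75 without R3), cryba1.L (8.53 and 7.73 without R2), crybb1.S (7.77, 8.73 without R1 and 6.88 without R2) and crybb3.L (7.72, 8.70 without R1 and 7.00 without R2), and for both crybb1.L probesets (8.91, 8.30 without R2, and 8.23, 9.06 without R1 and 7.36 without R2). All of these differences remained past the threshold.

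**Figure D2:**
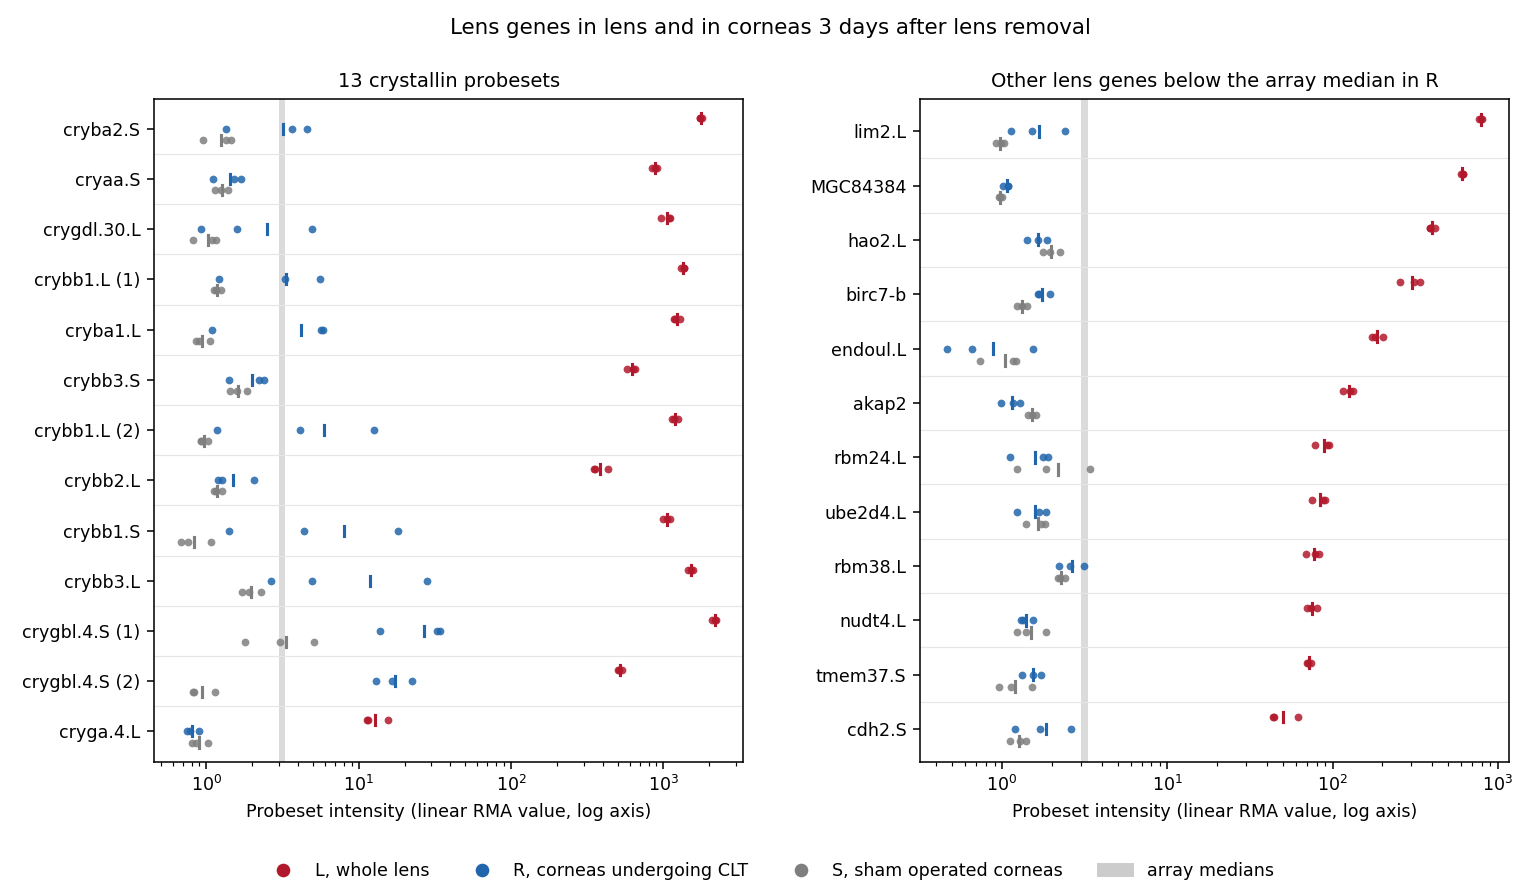
Intensity (horizontal, log axis) of the 13 crystallin probesets (left) and of 12 other lens genes below the median in R (right), with a point for each L, R and S array, a tick at the group mean and a grey band over the array medians. L points lie far to the right of all R points in every row, and R2 is the lowest R point for 12 of the 13 crystallin probesets.

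A set of 39 probesets with a mean of 32 or more in L lay below the median in all 3 R arrays (0.252% of 15476). They included 3 crystallin probesets, of cryaa.S, crybb2.L and crybb3.S, and of the other 36, 21 had a single symbol, naming 18 genes. The bounds on the fold of these 36 ran from 10.6 to 249.9, with a median of 21.9, and in 32 of them all 3 S arrays were below the median too. None of the 36 passed the limma test between R and S, which 0.485% of all probesets passed as higher in R and 0.64% as lower. At an unadjusted p under 0.05, 3 were higher and 2 lower in R. The set was chosen for low R values, so this test cannot tell whether its genes had begun to rise. lim2.L, a membrane protein of lens fibre junctions, stood at 788, 806 and 764 in L, against 1.52, 1.13 and 2.39 in R, at least 249.9-fold higher in L (adjusted p = 3.67e-08). In S it stood at 0.984, 0.914 and 1.03, and its difference between R and S was 0.71 (adjusted p = 0.238 in the limma test). The paper describes Lim2, but not a possible homologue of it, as upregulated in CLT. cdh2.S, the N-cadherin of lens cells, stood at 62.1, 44.5 and 43.7 in L, against 1.20, 1.70 and 2.60 in R, although the brighter cdh2.L was measured above the median in R, at 73.5, 71.9 and 69.96 in L, against 8.82, 21.99 and 13.9 in R (5.15-fold, adjusted p = 0.00456), so that the gene was not absent from R.

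Of 138 splicing and RNA binding genes, 2 were in the set, rbm24 and rbm38. rbm24.L, which binds lens transcripts in fish and mice, stood at 78.8, 95.2 and 93.1 in L, against 1.11, 1.89 and 1.76 in R (at least 28.2-fold), and rbm24.S at 30.5, 30.1 and 42.1 in L, against 1.07, 1.01 and 0.901 in R (at least 10.7-fold). rbm38.L, a close relative, stood at 82.9, 68.7 and 78.4 in L, against 2.58, 2.21 and 3.14 in R (at least 24.3-fold) on a probeset below the median in R, while the brightest of its 3 probesets read 206, 201 and 202 in L, against 4.66, 4.40 and 6.28 in R. Metabolic and signalling genes were also in the set. hao2.L, a peroxisomal hydroxyacid oxidase, stood at 415, 386 and 389.5 in L, against 1.87, 1.66 and 1.41 in R, at least 126-fold higher, and its homoeolog hao2.S, named after its values were seen, at 315, 254 and 286 in L, against 3.34, 2.68 and 2.90 in R.

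Anti-apoptotic and ubiquitin genes were also in this set. birc7-b, an inhibitor of apoptosis, stood at 336, 256 and 311 in L, against 1.66, 1.94 and 1.65 in R (at least 95.1-fold, adjusted p = 1.51e-08), and birc7.S at 33.7, 29.1 and 37.3 in L, against 1.96, 1.63 and 2.20 in R (at least 10.6-fold). ube2d4.L, a ubiquitin-conjugating enzyme, stood at 90.3, 74.6 and 88.02 in L, against 1.83, 1.22 and 1.67 in R (at least 26.7-fold), and its relative ube2k.S was also higher in L, at 285, 221 and 254 in L, against 60.98, 57.8 and 57.2 in R (4.29-fold). MGC84384, whose function is not named in the annotation, stood at 614, 611 and 594 in L, against 1.09, 1.01 and 1.09 in R (at least 193-fold). endoul.L, an endoribonuclease, stood at 201, 181 and 173 in L, against 0.656, 1.53 and 0.463 in R (at least 58.7-fold).

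For akap2, a scaffold for protein kinase A, a probeset that read 127, 115 and 133 in L, against 0.991, 1.16 and 1.28 in R gave at least 39.7-fold, but another read 195, 159 and 161 in L, against 2.86, 10.6 and 4.43 in R, above the median in R2 and R3, so that the 2 probesets of this gene differed in R. A like split was seen in nudt4.L, a diphosphoinositol polyphosphate phosphatase, with 80.99, 69.8 and 74.4 in L, against 1.33, 1.54 and 1.30 in R on 1 probeset and 138, 126 and 119 in L, against 9.15, 9.996 and 9.29 in R on another. tmem37.S, a membrane protein related to calcium channel subunits, stood at 70.1, 71.3 and 73.9 in L, against 1.54, 1.33 and 1.72 in R (at least 22.8-fold).

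Genes of lens fibres and lens membranes were mostly higher in lens, but not all. Of 16 genes in the list, 10 were higher, 1 was lower and 5 did not pass the test, where 18.8% and 35.6% of all genes with a symbol were higher and lower. The brighter probeset of the RNA-binding protein celf1.S, which is required for fibre cell shape in fish and mice, stood at 383, 354 and 359.6 in L, against 5.16, 13.04 and 16.5 in R (35.3-fold), and celf1.L at 169.9, 165 and 162 in L, against 2.94, 4.66 and 4.20 in R (42.9-fold with R1 below the median). gja1.L, the connexin of lens epithelium, stood at 36.1, 36.9 and 40.1 in L, against 3.14, 11.2 and 3.79 in R on the brighter probeset (7.37-fold, adjusted p = 0.000437). tdrd7.L, a tudor protein of RNA granules, stood at 143, 108 and 102 in L, against 6.81, 7.35 and 47.8 in R, where R3 was the high array (difference 3.12, adjusted p = 0.00535, and 4.04 without R3). ncam1.L stood at 29.9, 32.2 and 23.1 in L, against 3.90, 12.4 and 1.69 in R. Its R2 was the high array (difference 2.69, adjusted p = 0.004, 3.45 without R2 and 2.01 without R3). ncam1.S stood at 26.2, 27.9 and 19.9 in L, against 8.29, 5.32 and 9.50 in R and 1.75, 3.96 and 2.91 in S. Its difference between R and S did not pass the test (1.46, adjusted p = 0.080).

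vim, the intermediate filament of lens epithelium and of mesenchyme, did not pass the test. vim.S stood at 419, 413 and 354 in L, against 419.9, 601 and 498 in R (difference -0.34, 95% interval -0.85 to 0.16, adjusted p = 0.228), and vim.L at 428, 409.5 and 353 in L, against 417, 495 and 625 in R. epha2.L (difference -0.24), caprin2.L (0.27), hspb1.L (0.47) and slc2a1.L (-0.26 and -0.30) did not pass either, although slc2a1.L, a glucose transporter, was called higher after quantile normalisation (0.66 on both probesets) and cyclic loess (0.76 and 0.73). The single member called lower, in the deposited scale but not after those scalings, was chmp4b.L, an ESCRT subunit, whose 3 probesets included 11.9, 10.49 and 10.96 in L, against 26.7, 27.4 and 24.7 in R (2.36-fold lower) and 11.3, 10.6 and 13.7 in L, against 97.2, 26.1 and 19.7 in R, where R1 was the high array (difference -1.64, -0.94 without R1, and not called without L1 or L2). gsn.S (gelsolin) and cap2.L were just past the threshold, with adjusted p of 0.0257 and 0.0229, and each lost it without L1, L2, R1 or R3.

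Transcription factors of lens and eye were divided. Of 29, 11 were higher (37.9%, and 7 without L2), 9 lower (31.0%) and 9 did not pass. Over all genes with a symbol 18.8% were higher and 35.6% lower. sox3.S, a SoxB factor of early lens placode, stood at 31.02, 39.6 and 31.5 in L, against 0.799, 1.40 and 2.60 in R (at least 10.8-fold), and sox3.L, which was dim in both groups, was not called. prox1.L, required for fibre elongation in mice, stood at 28.2, 23.9 and 26.04 in L, against 2.19, 1.26 and 1.497 in R, at least 8.26-fold. pitx3.L, which is needed in the lens of fish and mice, stood at 13.3, 11.9 and 10.6 in L, against 2.52, 1.59 and 1.40 in R (at least 3.77-fold), and foxe3.L, a lens epithelium factor in mice, was dim at 5.56, 5.67 and 7.32 in L, against 1.94, 1.07 and 1.96 in R (at least 1.95-fold). sox2.L, which acts with pax6 at a crystallin enhancer in the chick, stood at 23.4, 26.4 and 31.8 in L, against 2.85, 7.60 and 7.59 in R with R1 below the median (4.92-fold, adjusted p = 0.00233). mitf.L (11.7, 11.6 and 13.6 in L, against 2.72, 2.66 and 2.36 in R) and zeb2.S (8.505, 8.10 and 5.54 in L, against 1.89, 2.59 and 3.68 in R) were also higher in L. The other 4 of the 11, lhx2.L, rax.S, mab21l2.L and hsf2.L, were dim, with 7.29, 7.32 and 7.57 in L, against 3.12, 4.93 and 1.57 in R for lhx2.L. The call was lost for lhx2.L without L1, L2 or L3, for rax.S without L2, L3, R2 or R3, for mab21l2.L without L2, L3, R1 or R2, and for hsf2.L without L1, L2 or R2.

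Other factors were lower in L. tfap2a.L, an ectoderm factor, stood at 6.12, 8.95 and 7.20 in L, against 87.1, 90.6 and 133 in R (13.9-fold lower, adjusted p = 8.91e-07). pitx1.L, a homeobox factor, stood at 1.22, 0.861 and 1.77 in L, against 24.04, 19.8 and 42.4 in R, at least 8.88-fold lower in L, with R3 above the other R arrays. otx1.L, a head ectoderm factor, stood at 7.30, 3.46 and 1.83 in L, against 49.6, 35.2 and 35.4 in R (11.03-fold). pax6.L, the eye selector that is active in both cornea and lens, was lower in L on its brightest probeset, at 30.6, 31.9 and 32.9 in L, against 82.4, 79.96 and 85.4 in R (difference -1.38, adjusted p = 0.00014), and on another, at 13.3, 14.4 and 13.7 in L, against 61.8, 104 and 121 in R (difference -2.73). Of its other probesets, 3 did not pass, and 1 was lower by -0.81 as deposited but not after quantile normalisation (0.09) or cyclic loess (0.16). pknox1.L, a partner of Meis factors, was also lower, at 10.2, 14.7 and 9.67 in L, against 35.6, 25.9 and 37.1 in R, and so were the dim sox11.S, meis1.S, meis2.L and meis3.S, with R means of at most 3.50. The call was lost for the dimmer meis1.S probeset without L1, L2 or R2, for meis2.L without L1, L3, R1 or R2 and for meis3.S without L2, L3, R1 or R3. The 9 that did not pass were six3, hey1, lhx9, hes1, six6, otx2, tbx3, gata3 and eya1, with differences between -0.67 (eya1.L) and 0.92 (six3.S).

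**Figure D3:**
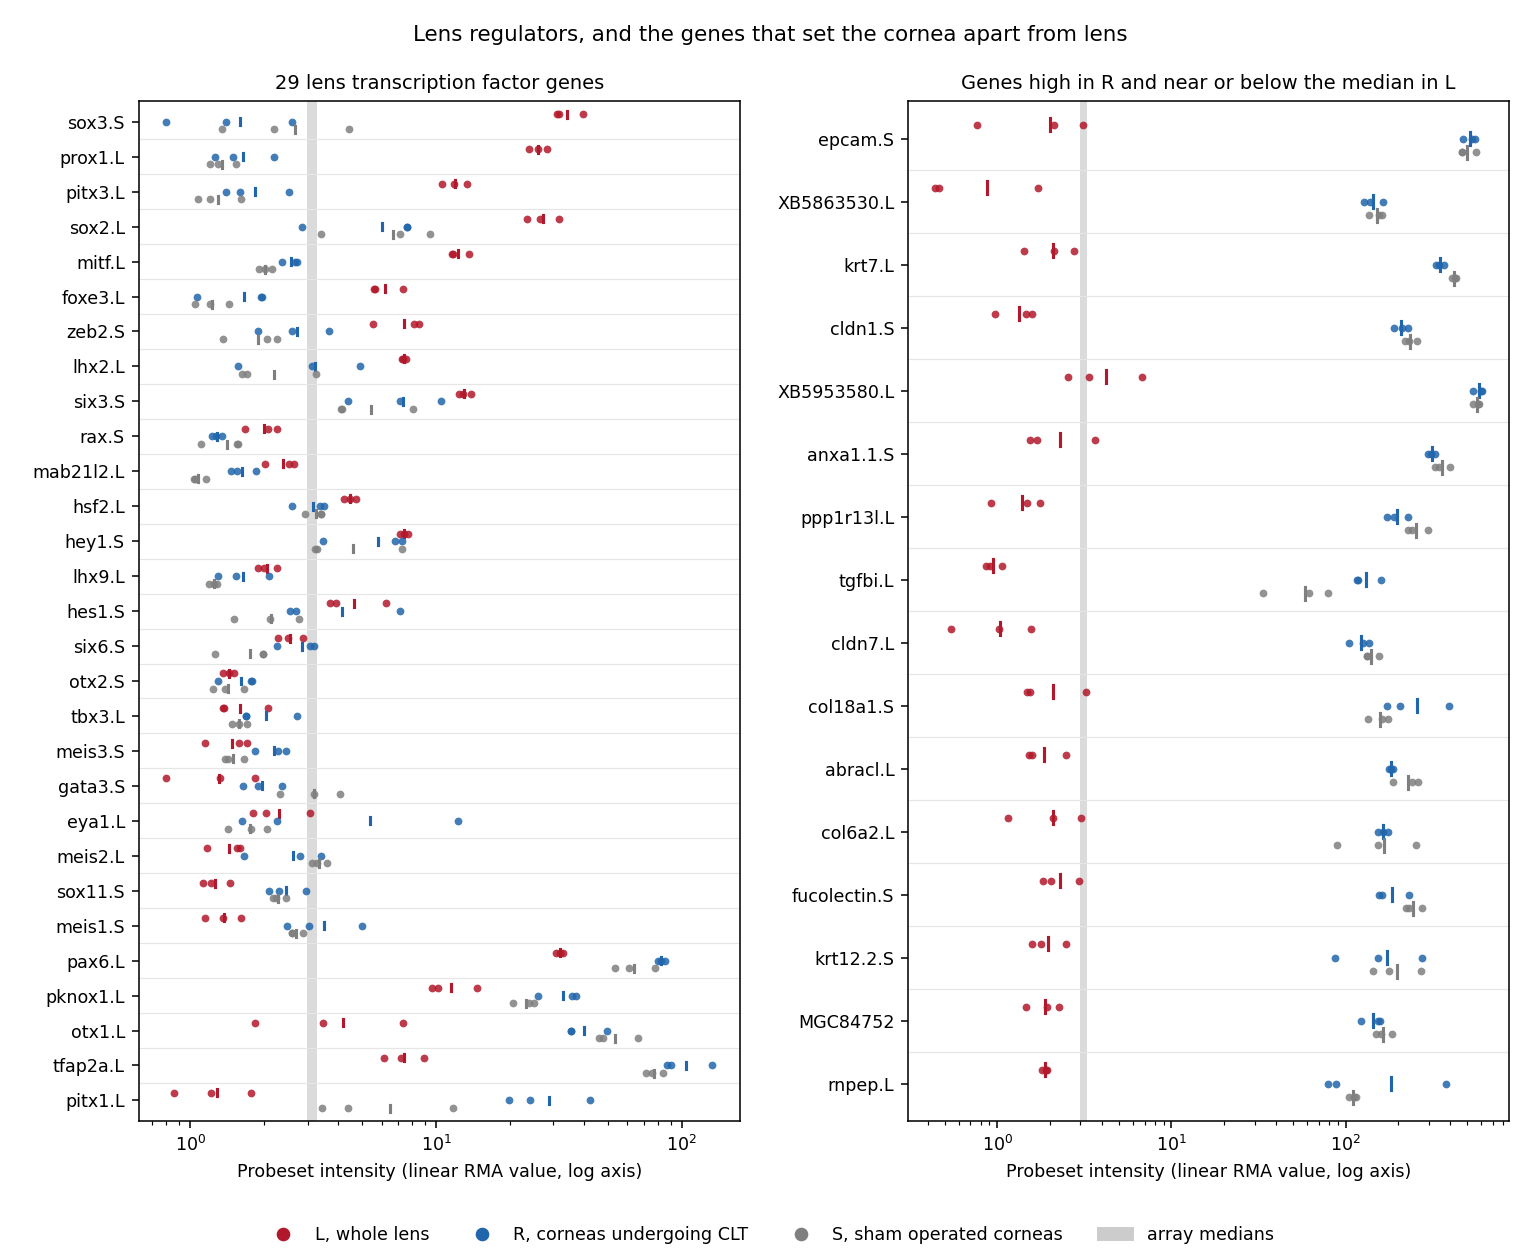
Intensity (horizontal, log axis) of the brightest probeset of 29 lens and eye transcription factor genes (left) and of 16 genes high in R (right), with a point for each L, R and S array, a tick at the group mean and a grey band over the array medians. Factors at the top left, such as sox3.S and prox1.L, are higher in L, those at the bottom, such as pitx1.L and tfap2a.L, are lower in L, and in the right panel all L points lie far to the left of the R points.

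Epithelial genes were mostly lower in L. Of 47 epithelial keratin and junction genes, 42 were lower in L (89.4%) and 2 higher (4.3%), against 35.6% and 18.8% of all genes with a symbol. The median difference was -4.14, and the list summed to 346 to 427 in L, against 6216 to 6716 in R. krt7.L, a keratin of simple and glandular epithelia, stood at 2.12, 2.74 and 1.42 in L, against 369, 332 and 342 in R (at least 113-fold, adjusted p = 5.37e-08). cldn1.S, a tight junction protein of skin, stood at 1.46, 0.972 and 1.57 in L, against 189, 227 and 212 in R, at least 68.05-fold lower in L. grhl1.L, a transcription factor of epidermal differentiation, stood at 1.15, 1.27 and 1.15 in L, against 69.3, 61.7 and 70.5 in R (at least 21.9-fold). krt12.2.S, named for the corneal keratin, stood at 1.79, 2.47 and 1.57 in L, against 276, 154 and 86.5 in R, and its R arrays spread widely. The exceptions were cldn5.S at 23.8, 17.2 and 17.5 in L, against 5.36, 8.05 and 4.15 in R and krt51.L at 2.55, 1.11 and 1.75 in L, against 0.902, 0.985 and 1.10 in R, a dim gene below the median in both groups whose call was lost without L1, L3, R1 or R2 or after cyclic loess.

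Across all genes, 187 probesets had a mean of 32 or more in R and lay below the median in all 3 L arrays (1.21%). Of these, 11 genes were in the epithelial list and 6 in the stroma list. tgfbi.L, a matrix protein in corneal stroma, stood at 1.07, 0.912 and 0.855 in L, against 117, 159 and 118 in R, at least 42.3-fold lower in L. lum.L (lumican, a stromal proteoglycan) stood at 1.09, 0.939 and 0.912 in L, against 75.2, 122 and 77.3 in R (at least 29.1-fold), and col1a1.S, a fibrillar collagen, at 6.74, 12.2 and 6.23 in L, against 649, 815 and 686 in R (89.2-fold). Of 31 stroma genes 23 were lower (74.2%) and 1 higher (3.2%), against 35.6% and 18.8% of all genes with a symbol. Their median difference was -2.88. The single higher gene was nid2.L, a basement membrane nidogen, at 67.3, 59.6 and 51.3 in L, against 10.8, 13.6 and 3.18 in R, whose R3 was the low array (2.29 without R3).

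ppp1r13l.L, an inhibitor of p53-family factors, stood at 1.76, 1.49 and 0.917 in L, against 228, 172 and 189 in R (at least 63.6-fold). epcam.S, an epithelial adhesion molecule, stood at 0.762, 3.12 and 2.11 in L, against 475, 533 and 556 in R with L2 above the median (304-fold, difference -8.25). anxa1.1.S, an annexin, stood at 1.68, 3.62 and 1.54 in L, against 311, 328 and 298 in R (148-fold).

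Leukocyte and antigen presentation genes were lower in L as well. Of 22 leukocyte genes 14 were lower (63.6%) and 1 higher (4.5%), against 35.6% and 18.8% of all genes with a symbol. The higher gene was rag2.S, a dim gene whose call was lost without L1, L2, R1 or R2. The list summed to 34.8 to 47.7 in L and 359 to 477 in R. mpo.L, a neutrophil enzyme, stood at 1.18, 1.31 and 1.53 in L, against 73.99, 87.5 and 95.2 in R (at least 27.8-fold), and c1qc.L, a complement subunit of macrophages, at 1.39, 1.80 and 2.02 in L, against 40.01, 50.8 and 70.5 in R. Of 15 antigen presentation genes 8 were lower (53.3%) and 1 higher (6.7%), to be read against the same shares of all genes. cd74.L, the invariant chain, stood at 0.790, 0.815 and 1.05 in L, against 28.03, 45.5 and 68.7 in R (at least 14.5-fold), and b2m.S (beta-2 microglobulin) at 0.402, 0.830 and 0.349 in L, against 38.7, 31.5 and 53.4 in R (at least 13.1-fold). psmb9.S, an immunoproteasome subunit, was higher (difference 0.96) but lost its call without L1, L3, R1 or R2.

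Of 7 pigment cell genes 5 were lower (71.4%) and 1 higher (14.3%), against 35.6% and 18.8% of all genes with a symbol. The higher gene was mitf.L (difference 2.25, adjusted p = 2.49e-06), also counted with the lens transcription factors. The lower count, however, was 2 without R2 or after quantile normalisation and 3 without R3 or after cyclic loess. The call was lost for tyrp1.L without R2 or R3 and for gpr143.L without L1, L3, R1 or R2. pmel-a, a melanosome protein, stood at 40.6, 63.1 and 14.1 in L, against 73.9, 108 and 102 in R, with L3 the low array (difference -1.5, -0.88 without L3), and it was not called without R2 or R3 or after quantile normalisation or cyclic loess.

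Genes of other cell types differed in both directions, where 18.8% and 35.6% of all genes with a symbol were higher and lower. Of 38 nerve genes, 12 were higher and 8 lower, and 7 were higher without L2 or after a filter on low values. ngfr.L, a neurotrophin receptor also made by basal epithelial and neural crest cells, stood at 0.873, 0.846 and 1.02 in L, against 69.8, 93.6 and 144 in R (at least 31.98-fold), and tubb2b.S, a neuronal tubulin, at 384, 394 and 325 in L, against 101.2, 201 and 124 in R (2.69-fold). Of 45 muscle genes 15 were higher and 10 lower, but 23 of the 45 lay below the median in all L and R arrays, and 5 were higher after the filter on low values. Among them were ckm.L (muscle creatine kinase) at 2.18, 4.32 and 1.53 in L, against 82.6, 85.9 and 59.7 in R (30.9-fold) and tnni1.S (troponin I) at 15.1, 14.1 and 25.4 in L, against 1.44, 1.46 and 1.81 in R, a low level. mybph.S, a myosin-binding protein, stood at 2.97, 6.30 and 8.74 in L, against 47.4, 64.4 and 91.6 in R, against 1.43, 1.13 and 1.35 in S, a difference of 5.66 between R and S (adjusted p = 0.000242). Quantitative PCR for Mybph in the paper went the other way, lower in CLT than in sham operated corneas. Of 24 photoreceptor genes 3 were higher and 2 lower, and without R2, 8 were higher and 1 lower. They included nrl.S, a leucine zipper factor of the Maf family, at 73.04, 68.8 and 67.003 in L, against 5.51, 5.69 and 2.27 in R (16.8-fold). It was not among the lens transcription factors counted above. The paper describes a lens factor, L-maf, and whether this probeset measures it was not tested, so nrl.S need not mark retina here. Of 19 red blood cell genes 3 were higher and 7 lower, but 3 were lower without L1 or without L3, 1 was higher without L1, and 4 and 3 were lower after quantile normalisation and cyclic loess. hba3.L, a globin, stood at 19.2, 257 and 36.6 in L, against 996, 525 and 464 in R (difference -3.47, -2.69 without L1 and -4.56 without L2).

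**Figure D4:**
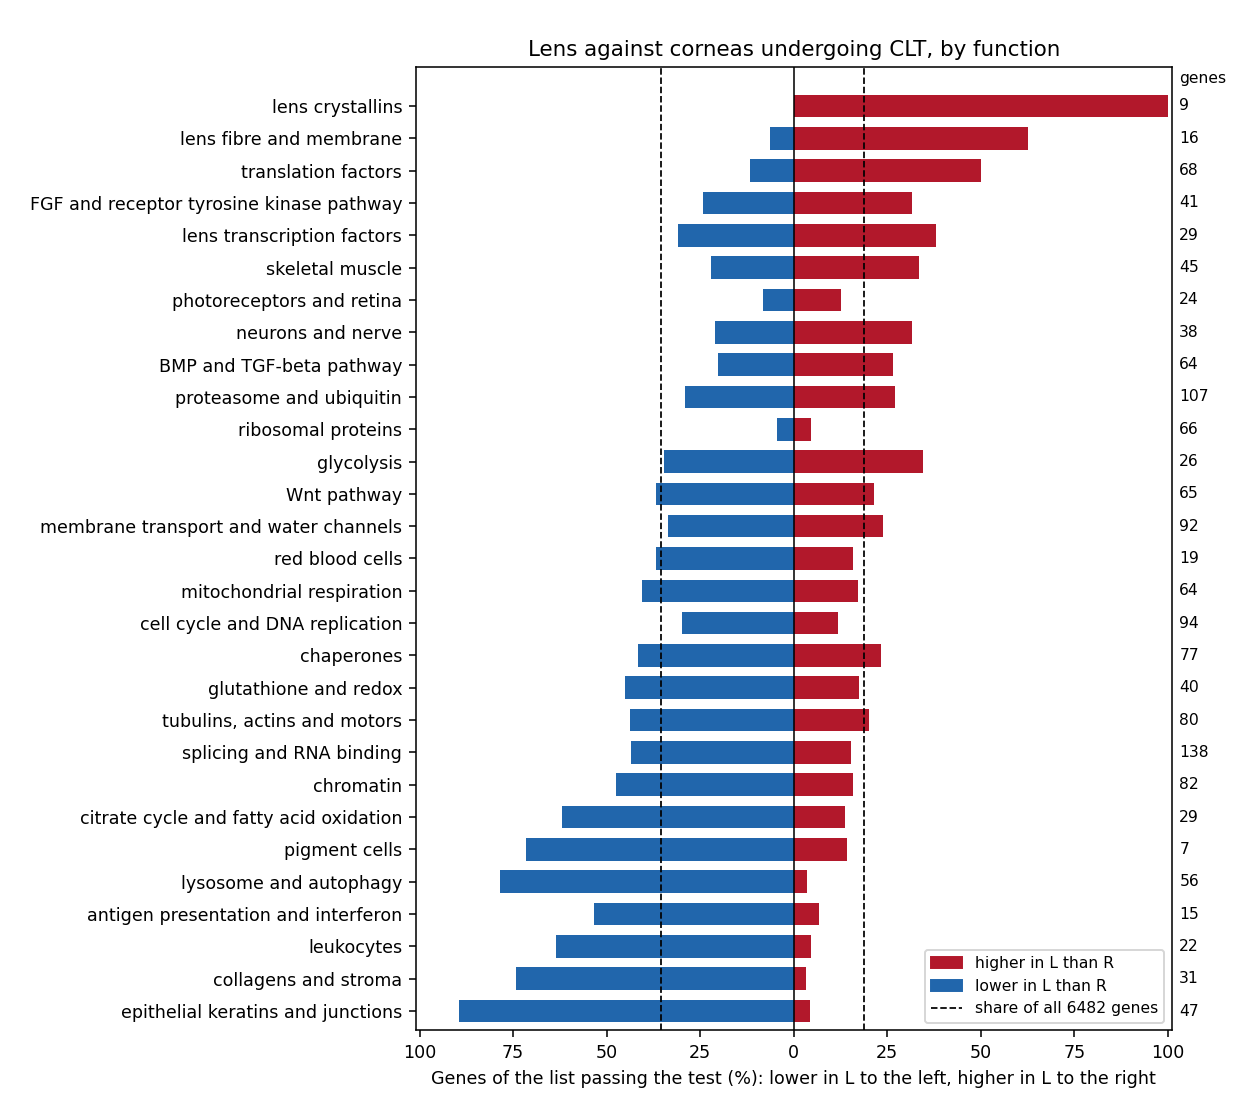
Percent of genes in each function list that were higher (right) or lower (left) in whole lens than in corneas undergoing CLT, with the number of genes measured, and dashed lines at the share of all 6482 genes (18.8% higher, 35.6% lower). Crystallins, fibre genes and translation factors reach furthest past the line on the higher side, and epithelial, lysosome, stroma, pigment and leukocyte genes on the lower side.

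The lists for protein synthesis differed from each other. Ribosomal protein genes were near equal in the 2 tissues, with 59 of 66 at lens level (an L mean of 32 or more and a 95% interval of L minus R within 1 of 0), 3 higher and 3 lower, and a median difference of -0.07. Over all 6482 genes with a symbol, 320 were at lens level. Of 68 translation factors 34 were higher (50%) and 8 lower (11.8%, with 2 lower after quantile normalisation or cyclic loess). Their median was 0.61. Over all genes with a symbol 18.8% were higher and 35.6% lower. etf1.S, a release factor, stood at 298, 332 and 315 in L, against 46.6, 45.1 and 32.3 in R (7.72-fold, adjusted p = 1.21e-06). eif3j.S, a subunit of an initiation factor, stood at 258, 218 and 242 in L, against 36.3, 42.2 and 38.4 in R (6.14-fold), and farsb.L, a tRNA synthetase subunit, at 46.95, 40.7 and 36.02 in L, against 3.93, 3.91 and 3.46 in R (10.9-fold). eif2a.S stood the other way, at 1.91, 2.65 and 2.85 in L, against 16.9, 14.7 and 23.7 in R, at least 5.89-fold lower in L.

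Of 77 chaperones 18 were higher (23.4%) and 32 lower (41.6%), near the shares of all genes with a symbol (18.8% and 35.6%). The median of -0.39 became 0.25 after quantile normalisation (19 lower) and 0.15 after cyclic loess (17 lower). Of the 7 subunits of the cytosolic CCT complex in this list, which folds tubulin and actin, 6 were higher and cct8.L did not pass (difference 0.29). cct7.S stood at 354, 345 and 305 in L, against 48.4, 57.7 and 27.1 in R (7.89-fold), cct4.S at 209, 197 and 179 in L, against 49.7, 49.4 and 34.1 in R (4.45-fold) and cct2.S at 116, 99.2 and 98.4 in L, against 11.98, 16.2 and 11.3 in R (8.02-fold). The lower genes included prolyl isomerases of the endoplasmic reticulum, with fkbp10.L at 1.06, 1.39 and 1.40 in L, against 55.7, 61.9 and 32.3 in R (at least 15.7-fold) and fkbp11.L at 8.73, 11.3 and 12.7 in L, against 131, 111 and 127 in R (11.4-fold).

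Genes of glucose metabolism were split between the directions. Of 26 glycolysis genes 9 were higher and 9 lower (34.6% each), against 18.8% and 35.6% of all genes with a symbol. The median of -0.13 turned to 0.30 and 0.28 after quantile normalisation and cyclic loess. slc2a2.L, a glucose transporter, stood at 28.3, 30.4 and 27.9 in L, against 1.26, 1.94 and 1.21 in R, at least 9.18-fold higher in L. ldha.S, which makes lactate, stood at 82.3, 79.3 and 76.5 in L, against 11.3, 23.1 and 18.2 in R (4.71-fold), and pgk1 at 90.2, 94.2 and 109.9 in L, against 32.5, 31.8 and 15.8 in R (3.85-fold). fbp1.L, an enzyme of glucose synthesis, stood at 4.79, 5.82 and 5.81 in L, against 114, 118 and 351 in R, 30.8-fold lower in L, and gpi.S at 40.3, 47.7 and 38.3 in L, against 255, 269 and 231 in R (5.99-fold). aldoa.L stood at 308, 307 and 307 in L, against 302, 268 and 369.6 in R and did not pass the test (difference -0.01).

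In respiration and fatty acid oxidation, more genes were lower than higher on the deposited scale, as among all genes with a symbol (35.6% and 18.8%). The shares were 40.6% and 17.2% for respiration, near those of all genes. For the citrate cycle and fatty acid oxidation they were 62.1% and 13.8%. Of 64 respiration genes 26 were lower and 11 higher, and 24 of the 64 were at lens level, where 320 of all 6482 genes with a symbol were. The median of -0.24 for respiration turned to 0.26 after quantile normalisation (23 higher, 15 lower) and 0.45 after cyclic loess (27 higher, 14 lower). atp5mc1.L, a subunit of the ATP synthase ring, stood at 9.40, 10.2 and 11.8 in L, against 90.7, 82.9 and 95.3 in R (8.58-fold lower), and ndufb8.L, a complex I subunit, at 55.9, 63.2 and 63.2 in L, against 24.6, 25.6 and 12.6 in R (3.04-fold higher). Of 29 citrate cycle and fatty acid oxidation genes 18 were lower and 4 higher, with 9 and 8 lower after quantile normalisation and cyclic loess. pdk4.L, a kinase that restrains pyruvate oxidation, stood at 1.98, 2.89 and 2.20 in L, against 47.4, 59.3 and 48.1 in R (at least 16.7-fold lower).

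Redox genes went both ways. Of 40, 7 were higher (17.5%) and 18 lower (45%), against 18.8% and 35.6% of all genes with a symbol. The median of -0.45 turned to 0.13 and 0.05 after quantile normalisation and cyclic loess, where 12 and 14 were higher. gss.L (glutathione synthetase) stood at 32.1, 28.7 and 32.9 in L, against 2.17, 2.79 and 3.35 in R with 2 of 3 R arrays below the median (11.4-fold), and gclm.L, the modifier of the enzyme that makes its precursor, at 9.43, 10.3 and 6.95 in L, against 1.95, 1.54 and 1.59 in R (at least 2.79-fold). aldh1a1.S, a retinaldehyde dehydrogenase, stood at 0.771, 0.818 and 0.683 in L, against 23.8, 21.4 and 35.9 in R (at least 8.60-fold lower), and txnip.L, a thioredoxin inhibitor, at 7.66, 9.37 and 7.51 in L, against 80.9, 99.3 and 97.7 in R (11.3-fold lower).

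Lysosome and autophagy genes were lower in L on every scale tried, with 44 of 56 lower (78.6%) and 2 higher (3.6%). Over all genes with a symbol 35.6% were lower and 18.8% higher. ctss.S (cathepsin S, also counted with the immune genes) stood at 0.984, 1.39 and 1.20 in L, against 42.5, 43.4 and 38.9 in R (at least 13.6-fold) and ctsc.L at 8.01, 7.405 and 7.83 in L, against 65.5, 61.2 and 72.02 in R (8.54-fold). The gene for beta-galactosidase, glb1.L, was the exception, at 241, 229 and 237 in L, against 13.4, 21.1 and 21.05 in R (13.004-fold higher). atp6v0d2.L was also higher, at 109.8, 114 and 96.5 in L, against 39.1, 52.9 and 58.7 in R. Of 107 proteasome and ubiquitin genes 29 were higher and 31 lower, with a median of -0.04 that became 0.51 after quantile normalisation (46 higher, 18 lower) and 0.52 after cyclic loess (48 higher, 17 lower).

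Membrane transport genes stood on both sides. Of 92, 22 were higher (23.9%) and 31 lower (33.7%), near the shares of all genes with a symbol (18.8% and 35.6%). After a filter on low values 13 were higher. aqp3.L, a water and glycerol channel, stood at 113, 127.5 and 119 in L, against 2.06, 1.88 and 7.94 in R (difference 5.26, and 5.93 without R3), whereas aqp3-a went the opposite way at 3.30, 3.99 and 4.34 in L, against 46.1, 51.4 and 49.7 in R. slc7a5.L, a large neutral amino acid transporter, stood at 160.1, 165 and 136 in L, against 4.83, 15.8 and 7.62 in R (18.3-fold). The subunits of the epithelial sodium channel differed from one another. scnn1a.L stood at 205, 207 and 167 in L, against 178, 312 and 124 in R (difference 0.01, 95% interval -0.84 to 0.86), while scnn1b.S stood at 1.45, 1.67 and 1.71 in L, against 27.8, 24.5 and 19.7 in R (at least 7.75-fold lower in L) and scnn1g.S at 0.672, 0.819 and 0.827 in L, against 17.6, 16.7 and 23.8 in R (at least 6.23-fold). atp1b2.L, a sodium pump subunit, was 25.6-fold lower in L.

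Signalling lists held members on both sides. The FGF and receptor tyrosine kinase list of 41 had 13 higher (31.7%) and 10 lower (24.4%). Over all genes with a symbol the shares were 18.8% and 35.6%. The counts were 18 and 5 after quantile normalisation and 16 and 4 after cyclic loess for this FGF list. fgfr4.S, an FGF receptor, stood at 6.95, 7.92 and 6.10 in L, against 0.927, 0.801 and 0.821 in R (at least 2.21-fold), and fgfr2.L, a receptor of surface ectoderm, at 13.6, 21.5 and 10.97 in L, against 56.7, 60.2 and 55.7 in R (3.90-fold lower). etv4.L, a target of FGF signals, stood at 7.69, 9.07 and 11.5 in L, against 1.68, 1.49 and 1.71 in R. In the BMP and TGF-beta list of 64, 17 were higher (26.6%, and 10 genes after a filter on low values) and 13 lower (20.3%). In this BMP list 23 genes lay below the median in all L and R arrays. Its median of 0.13 turned to -0.06 after cyclic loess. smad7.L, a feedback inhibitor, stood at 28.8, 26.3 and 27.2 in L, against 2.22, 5.75 and 1.03 in R (11.6-fold, with R1 and R3 below the median, 18.1 without R2 and 7.67 without R3), and grem1.L, a secreted BMP antagonist, at 0.846, 1.03 and 2.29 in L, against 32.8, 27.7 and 46.1 in R (at least 11.3-fold lower). In the Wnt list of 65, 14 were higher (21.5%) and 24 lower (36.9%), near the shares of all genes with a symbol (18.8% and 35.6%). sfrp2.S, a secreted Wnt antagonist, stood at 56.98, 59.2 and 76.3 in L, against 2.57, 7.52 and 1.87 in R (difference 4.27, and 4.86 without R2), and wnt2b.L, a ligand, at 12.1, 14.4 and 13.2 in L, against 2.54, 2.20 and 2.87 in R. fzd7.L, a receptor, stood at 19.8, 15.5 and 16.5 in L, against 2.86, 3.46 and 4.18 in R (4.97-fold) and on this probeset was also higher in R than in S (difference 1.44, adjusted p = 0.0325). For Fzd7 the paper also lists a smaller array ratio of R to S that it does not mark as upregulated. Its quantitative PCR found a rise.

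Nuclear functions were, on the deposited scale, more often lower than higher, as were all genes with a symbol (35.6% lower and 18.8% higher). The lower share was 43.5% for splicing and RNA binding and 47.6% for chromatin. For cell cycle genes it was 29.8%, below that of all genes. Of 138 splicing and RNA binding genes, 21 were higher and 60 lower, of 82 chromatin genes 13 and 39, and of 94 cell cycle genes 11 and 28 (13 and 14 lower after quantile normalisation and cyclic loess). For splicing, 45 were higher and 27 lower after quantile normalisation and 40 and 23 after cyclic loess, for chromatin 18 and 19 and 18 and 17, and the median sign of both lists turned under quantile normalisation and cyclic loess. rbfox2.S stood at 2.85, 2.55 and 1.45 in L, against 23.6, 27.1 and 30.9 in R and esrp1.L, an epithelial splicing regulator, at 2.18, 1.07 and 2.94 in L, against 76.7, 79.5 and 79.3 in R, at least 25.6-fold lower in L. hmga2.L, an architectural chromatin protein of growing tissue, stood at 12.5, 11.1 and 11.6 in L, against 1.76, 1.34 and 1.49 in R (at least 3.73-fold higher), and h1-10.S, a linker histone, at 12.6, 13.1 and 13.3 in L, against 93.7, 67.5 and 63.6 in R (5.69-fold lower). kif11.L, a mitotic motor, stood at 1.97, 3.94 and 2.20 in L, against 15.2, 15.3 and 18.2 in R (6.30-fold lower). Of 80 cytoskeletal genes 16 were higher (20%) and 35 lower (43.8%, with 23 lower after quantile normalisation). tmsb4x.L, an actin-sequestering peptide, stood at 16.9, 36.5 and 18.7 in L, against 530.5, 574 and 533 in R (24.2-fold lower).

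**Figure D5:**
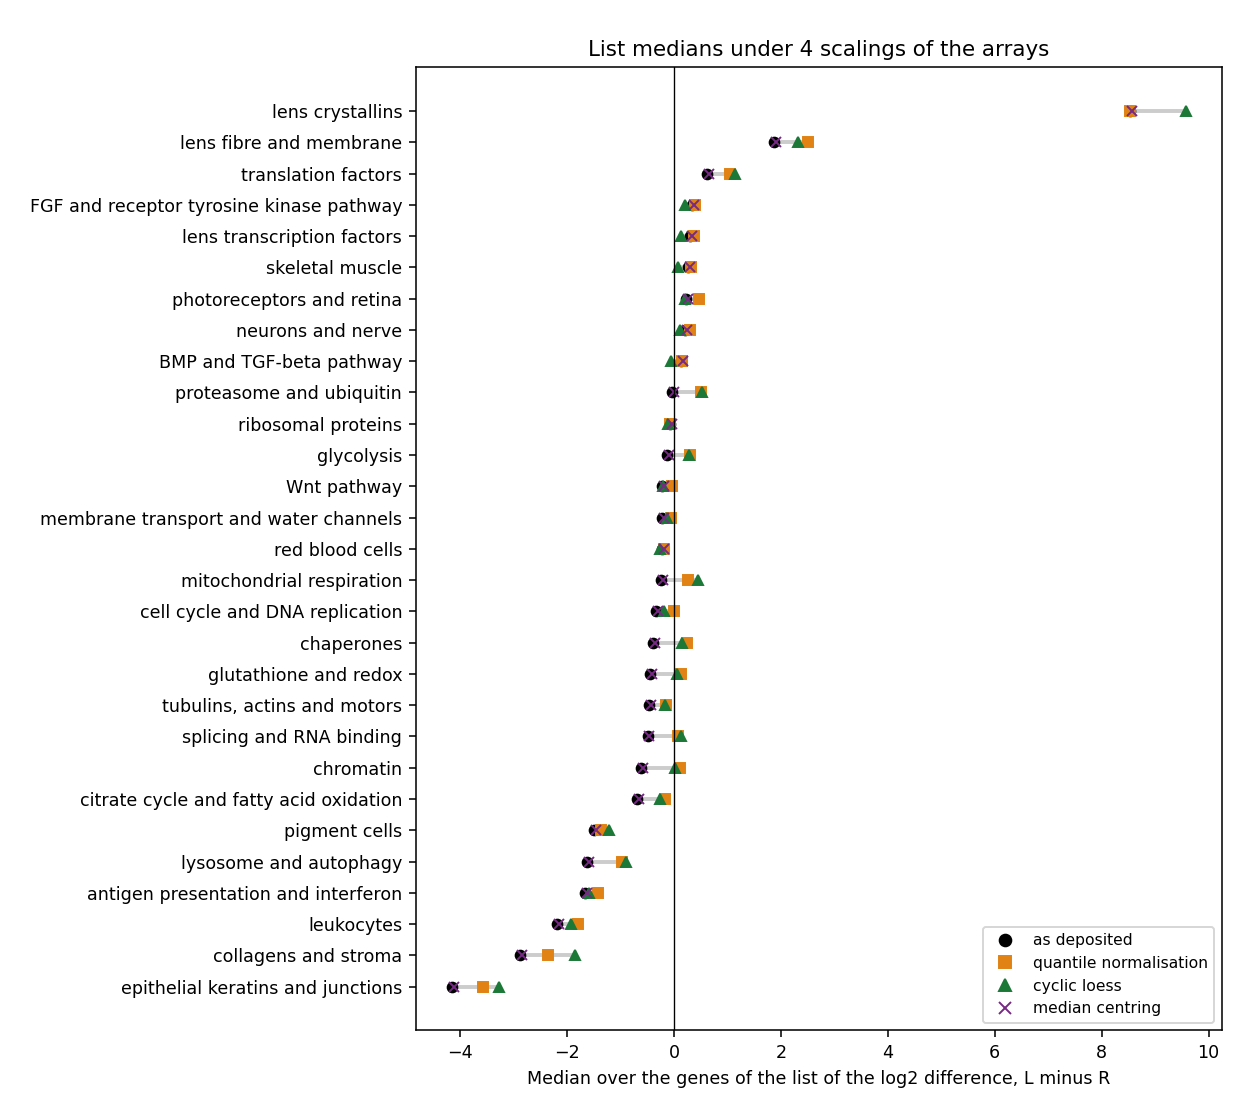
Median difference between whole lens and corneas undergoing CLT (log2, horizontal axis) for each function list, as deposited and after quantile normalisation, cyclic loess and median centring. Crystallins stay far above 0 and epithelial genes far below it on every scale, while the chaperone, chromatin, redox, glycolysis, respiration, proteasome and splicing lists change sign under quantile normalisation and cyclic loess, and the BMP list under cyclic loess.

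A set of 520 probesets (3.36%) had a mean of 32 or more in L and an interval within 1 of 0. They named 344 genes, of which 178 were in a list, with 59 ribosomal protein genes, 25 respiration genes and 19 translation factors that had at least 1 such probeset. The membership of this set depended on scaling. Of the 520 probesets, 328 were still at lens level after quantile normalisation, where the set held 636. After cyclic loess 267 of them were, in a set of 623. rps3.L stood at 1472, 1459 and 1376 in L, against 1362, 1417 and 1292 in R, eef1a1.S, the elongation factor, at 1318, 1223 and 1253 in L, against 1176, 1291 and 1119.9 in R and rpl5.L at 1171, 1166 and 1169.9 in L, against 1024, 1107 and 982 in R.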

How the data were processed

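Total RNA from pooled lenses (L) or pooled corneas (R and S) was amplified and labelled by the authors with a NuGEN Ovation kit and hybridised to *Xenopus laevis* GeneChips, 1 array per pool. The deposited intensity values were normalised by the authors over all 9 arrays with RMA in GenePattern, on a linear scale. Its options and versions: not given in the sources used here. Values near background carry little signal, so that folds of dim genes can be compressed.

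Log2 intensities of 15476 probesets (135 control probesets left out, no filter) were fitted in limma 3.58.1 (R 4.3.3; lmFit, eBayes) with L, R and S in 1 model (6 degrees of freedom left for the error). Tests were two-sided, and p-values were adjusted by Benjamini-Hochberg over all probesets, with a threshold of 0.05. The fit was tested on simulated data, where 38 of 100 probesets changed by 2-fold and 86 of 100 changed by 4-fold were recovered among 15476. Of the 15276 unchanged probesets 7 were called. Far fewer probesets changed there than were called between L and R (48.8%), so these rates do not describe that comparison.

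Gene symbols came from the platform annotation (9296 probesets with 1 symbol, 195 with several, 5985 with none). The 29 gene lists count 1 probeset per gene, the brightest over all arrays. Named genes were, with the exceptions below, the 10 largest differences in each direction, the 15 brightest genes below the median in R and the 10 brightest below it in L, up to 4 genes with the smallest adjusted p in each direction and 2 with the smallest difference per list, every lens gene and the 10 brightest genes at lens level. hao2.S, aqp3-a and the further probesets of akap2 and nudt4.L were chosen after their values were seen. The members and lists were chosen with earlier results of these data known. Alternatives were other offsets, scalings, filters, floors, fits and left-out arrays. Tables were made with Python 3.11.15 and pandas 2.3.3.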

Additional observations from a re-analysis of the deposited data

How the results depend on the processing

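The counts of probesets higher and lower in L kept within 1.5 times of 2881 and 4674 in all alternatives except a filter on low values, which left 9320 probesets and 1913 higher. The probesets behind the counts changed with scaling. Of the 2881 higher and 4674 lower, 2281 and 3143 were called in the same direction after cyclic loess. After quantile normalisation 2818 and 3332 were. Leaving out each array in turn gave 2498 to 2840 higher, 4201 to 4675 lower, 38 to 52 lens probesets below the median in R, 181 to 215 R probesets below the median in L and 452 to 537 at lens level. Where lens probesets below the floor in R numbered 39 and the mirror set 187, the array's 25th percentile as floor gave 11 and 81, an intensity of 8 gave 76 and 404, and a minimum mean 4 times as high gave 9 and 18, with 210 at lens level. Cyclic loess gave 86 for the mirror set.

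Many of the 359 named probesets were chosen for large differences or small adjusted p, so their stability does not describe all probesets. Over 20 alternatives, 6860 of their 7118 values kept direction and call, 203 lost the call and 35 gained it. 20 turned direction, all after scaling. After quantile normalisation, nras.L (0.024) and 1 pax6.L probeset (0.087), both called lower as deposited, were no longer called, and fzd8.S (0.66), txnrd2.S (0.96), both slc2a1.L probesets (0.66 each), becn1.L (0.70), atg16l1.L (0.85) and usp14.S (0.91), all near 0 as deposited, were called higher. After cyclic loess, the values were nras.L 0.11, pax6.L 0.16, fzd8.S 0.90, txnrd2.S 1.0, slc2a1.L 0.76 and 0.73, becn1.L 0.88, atg16l1.L 0.96 and usp14.S 0.95, and ndufb2.S (0.74) and eif4h.S (0.67) were also called higher. The cause was not tested.

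L and R share replicate numbers, and deviations of same-numbered arrays correlated at 0.022, 0.133 and 0.091, against -0.125 to 0.018 for arrays of different number. Each lens array correlated best with the R array of its own number. By the methods L and R came from the same operated tadpoles, but the labels do not match pools by number. For that reason the main fit treated the pools as independent. Whether same-numbered pools shared animals is not known. With the replicate block, 2424 probesets were higher and 4294 lower over 9 arrays, and 2202 and 4174 over the L and R arrays alone, where the fit without it gave 2389 and 4302. Signal near the array median limits what can be said of dim genes.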
